A study of Bos taurus with 20 samples.

Results

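The receptor tyrosine kinase KIT and its ligand KITLG were followed through the cell types of the bovine ovarian follicle on a one-color array. Members were the non-control probes of the array whose gene name is KIT or KITLG. These are 2 genes of 22550 genes or transcripts on the array, measured by 6 of its 61325 probes, 2 for KIT and 4 for KITLG.

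KITLG, also called stem cell factor, is made as a membrane-bound protein whose outer part can be shed, and it binds and activates KIT on the neighboring cell. In the ovary KIT is known from oocytes and theca cells and KITLG from granulosa cells, and the pair is known for its part in germ cell survival, activation of primordial follicles, and growth of the oocyte and theca. Inside the cell, active KIT recruits adaptors and SRC family kinases and signals through PI3 kinase and AKT, which inactivate FOXO3, through RAS and ERK, and through JAK and STAT proteins, while phosphatases and ubiquitin ligases end the signal.

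Antral follicles of 3 to 6 mm from bovine ovaries collected after slaughter gave oocytes (OO), their cumulus cells (CC), granulosa cells (GC), and theca cells scraped from the follicular wall (TH), all of the immature stage, and cumulus cells detached after 4 h of in vitro maturation (CC-IVM). Each of the 5 groups had 4 arrays, each hybridized with Cy3-labeled cRNA made from 200 ng of total RNA. Samples are bulk preparations, so fewer cells of a type and less RNA per cell cannot be told apart, and the labels give no animal or pool for a replicate. The p-values therefore measure the spread between the samples, which may be partly technical. No genotype or drug separates the groups, and animal ages are not given in the sources used here.

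The share of probes called well above background ran from 49.3% (OO replicate 2) to 68.8%. The 75th percentile of processed signal had a median of 1746 in OO, 585 in CC, 560 in TH, 437 in GC, and 333 in CC-IVM, and each array was set to its own 75th percentile. Values below are log2 of processed signal minus that percentile, so 0 is the 75th percentile of the array. TH, GC, CC, and OO arrays lay on slides 1 and 2 in equal parts, whereas all CC-IVM arrays lay on slide 3. Labels went with the summed levels of their marker lists. The summed level of 8 oocyte genes, among them GDF9, BMP15, and ZP3, was 279 to 368 times the 75th percentile in OO, 0.68 to 3.32 times in CC, and under 1 in the other groups. The summed level of 5 granulosa and cumulus genes was 110 to 451 in GC, 382 to 393 in CC, 625 to 769 in CC-IVM, 18.2 to 33.4 in TH, and 2.22 to 3.03 in OO. INHBA had the highest mean of this list, 8.32 in CC and 9.39 in CC-IVM. The others were lower in CC-IVM than in CC. CC-IVM minus CC was -1.25 for FSHR, -1.26 for CYP19A1, -1.04 for AMH, and -3.56 for FOXL2 (adjusted p at most 0.0319). FOXL2 was above background on no CC-IVM array. The summed level of 6 theca genes was 426 to 674 in TH, 25.9 to 101 in GC, and at most 31.7 in the other groups. Of the theca genes, STAR had a higher mean in OO (3.43) than in TH (2.27). The part of TH cells in GC samples, and of GC in TH, was not tested.

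The files place KIT-201 at chr6:71796318-71917431, KITLG-201 at chr5:18317748-18420025, and the shorter model KITLG-202 at chr5:18317754-18377565, all on UMD 3.1. They give the span of the transcript model but not the place of the probe in it, so exon or untranslated region is not assigned here. Each probe is 60 bases long, and none shares its whole sequence with another probe of the array. The first 30 bases of each are shown, because the 4 KITLG probes are windows of a single stretch of 120 bases and their values are not independent. Capitals mark bases covered by 2 or more KITLG probes. The probe sequences are those of the array design.
KIT-a: gctaatgtaagacgtttttgctgtttgcca
KIT-b: tgtctaggtacttcaggggcacttcactga
KITLG-a: tgcaagagaaagagagagagtttcaaGAAG
KITLG-b: GAAGTGTAATTGTGGCTTCTATCAACACTG
KITLG-c: TGTTACTTTCGTACATTGGCGGGTAACAGT
KITLG-d: TTTCGTACATTGGCGGGTAACAGTTCATGT
KITLG-a covers bases 1 to 60 of the stretch, KITLG-b 27 to 86, KITLG-c 55 to 114, and KITLG-d 61 to 120. KITLG-a and KITLG-d were designed on KITLG-201 and the other pair on KITLG-202, but all 4 read the same stretch, so none separates the transcript models. KITLG-c and KITLG-d share 54 bases, KITLG-a and KITLG-c share 6, and KITLG-a and KITLG-d share 0.

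Both members differed among the 4 cell types, and both were highest in the oocyte. KIT, the receptor, was 3.85 to 6.64 times higher in OO than in TH, GC, or CC, and no difference among these 3 somatic groups passed the test. KITLG, the ligand, was highest in OO, lower in TH and GC, and near or below background in CC. After 4 h of IVM, KIT fell in cumulus cells on both probes, and KITLG was called higher on 2 of its 4 probes. Some genes above background on no CC or CC-IVM array were also called higher after IVM. All 6 probes passed the F-test over TH, GC, CC, and OO, as did 67.5% of all probes, so passing it says little about the members.

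KIT was well above background on all 20 arrays. On KIT-a, the OO arrays read 1.89, 1.93, 1.88, and 1.76, and the CC arrays -0.39, 0.31, -0.45, and -0.22. The TH arrays read 0.45, -0.36, -0.42, and -1.07, and the GC arrays -0.72, -1.24, -0.62, and -0.89. Every OO array was thus above every other array, OO had the smallest spread (SD 0.077), and TH overlapped both GC and CC, which did not overlap each other. On KIT-b, OO read 2.79, 2.89, 2.74, and 2.80, CC 0.74, 1.49, 0.35, and 0.84, TH 1.49, 0.67, 0.64, and 0.041, and GC 0.42, -0.096, 0.41, and 0.29. KIT-b showed OO apart from the rest in the same way, but GC and CC overlapped. The correlation of the pair of probes over 20 arrays was r = 0.996, a description of probes of 1 gene on shared arrays.

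KIT was higher in OO than in CC by 2.05 ± 0.27 (SE, n = 4 against 4; 4.14-fold; adjusted p = 6.95e-06) on KIT-a and by 1.95 ± 0.28 (3.85-fold; adjusted p = 1.77e-05) on KIT-b, with 29.5% of all probes called higher in OO than in CC. Against GC it was higher by 2.73 and 2.55 (6.64- and 5.85-fold; 28.9% of all probes), and against TH by 2.22 and 2.09 (4.64- and 4.27-fold; 30.5% of all probes). Over all probes the median difference was -0.47 for OO minus CC, -0.68 for OO minus GC, and -0.44 for OO minus TH. Over probes above background on all arrays, as KIT was, the median was -0.082, -0.071, and 0.12. Relative to the first median KIT was higher still. Relative to the second its lead changed little, and it was slightly smaller over TH. Every OO array lay above every array of the other 4 groups on both KIT probes and all 4 KITLG probes, as it did for 20.2% of all probes. Within slide 1, OO exceeded CC by 1.95 on KIT-a and 1.72 on KIT-b, and within slide 2 by 2.15 and 2.17. Without OO replicate 2, the differences of OO from each somatic group were 1.92 to 2.71, all still called.

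Among the somatic groups KIT passed no test. TH minus GC was 0.52 (95% confidence interval -0.063 to 1.09; adjusted p = 0.206) on KIT-a and 0.46 (-0.14 to 1.06; adjusted p = 0.291) on KIT-b, where 23.8% of all probes differed between TH and GC. TH minus CC was -0.16 (-0.74 to 0.41) and -0.15 (-0.75 to 0.45), with adjusted p of 0.763 and 0.809. GC minus CC was -0.68 (-1.26 to -0.10; adjusted p = 0.157) and -0.60 (-1.20 to -0.0030; adjusted p = 0.237), where 4.94% of all probes were lower in GC. GC was called lower than CC on both probes in the deposited log2 table (-0.75 and -0.82, adjusted p of 0.034 and 0.033). Without TH replicate 4, TH exceeded GC by 0.76 on KIT-a, with adjusted p = 0.039.

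Theca holds blood-lineage cells, and mast cells carry KIT. Of 7 mast cell markers on the array, 5 were well above background on at least 3 TH arrays, among them CPA3 and FCER1A. MS4A2 and HPGDS were above background on no TH array. The summed level was 1.38 to 1.54 in TH, against 0.079 to 0.14 in GC and 0.058 to 0.13 in CC. GATA2 had the highest mean of the list in TH (-0.46). In OO the summed level was 14.8 to 19.2, nearly all of it GATA2 (mean 4.10). Some probe of TPSB1 was above background on 3 of 4 OO arrays, though its median over probes was low (mean -7.33). HDC was above background on 2 OO arrays, and CPA3, MS4A2, FCER1A, and HPGDS on none. The summed level of 5 endothelial markers was 2.71 to 5.59 in TH, 0.15 to 0.42 in GC, and 2.91 to 4.43 in OO. For 5 smooth muscle and pericyte markers it was 201 to 216 in TH and 5.77 to 19.9 in GC. The part of mast, endothelial, smooth muscle, and pericyte cells in the KIT and KITLG levels of TH was not tested. In CC the oocyte marker list was at 0.184% to 1.19% of its OO level. KIT in CC was at 19.2% to 36.7% of its OO level on KIT-a and at 17.2% to 42.3% on KIT-b, and the part of oocyte RNA in it was not tested.

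**Figure D1:**
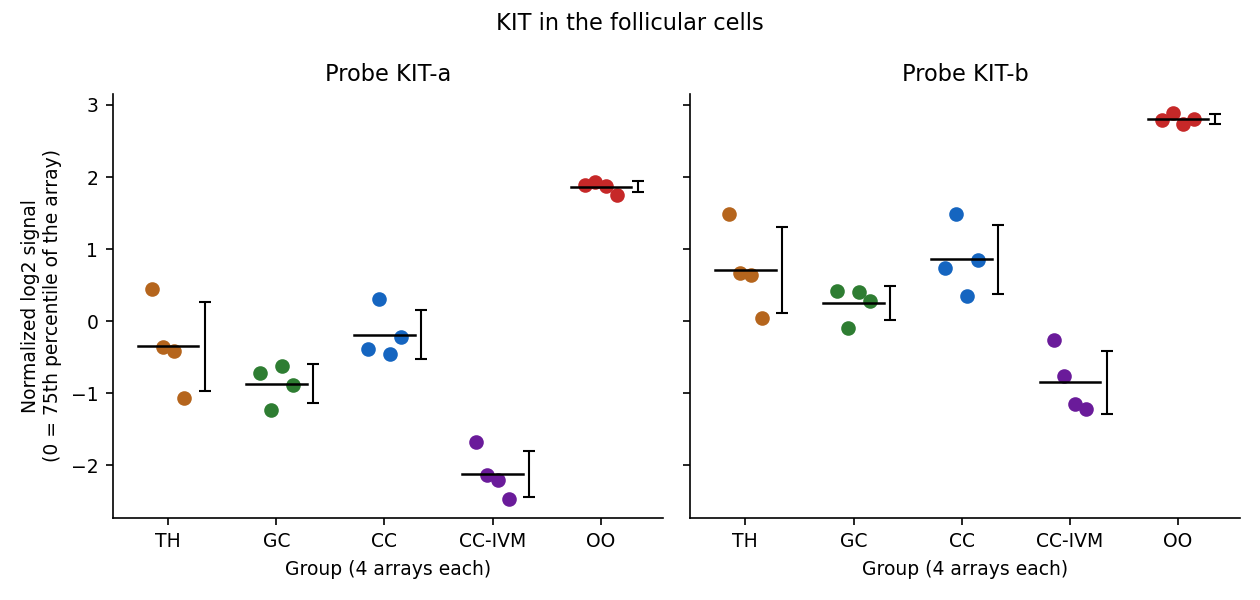
Normalized log2 signal of KIT (y axis, 0 is the 75th percentile of the array) on each of 4 arrays of TH, GC, CC, CC-IVM, and OO (x axis) for probes KIT-a (left) and KIT-b (right). Points are arrays, horizontal lines are group means, and bars are ± 1 SD. The OO arrays lie at 1.76 to 1.93 (KIT-a) and 2.74 to 2.89 (KIT-b), above all others, and CC-IVM lies below CC.

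After 4 h of IVM, KIT was lower in cumulus cells. The CC-IVM arrays read -1.68, -2.13, -2.20, and -2.46 on KIT-a and -0.27, -0.76, -1.15, and -1.22 on KIT-b. Every CC-IVM array lay below every CC array on both probes, as for 14.8% of all probes, and all 4 remained well above background. CC-IVM minus CC was -1.93 ± 0.25 (SE, n = 4 against 4; 3.81-fold lower; adjusted p = 0.000612) on KIT-a and -1.71 ± 0.31 (3.27-fold lower; adjusted p = 0.00353) on KIT-b, with 15% of all probes called lower. The median difference over all probes was 0.39, and over probes above background on all arrays 0.055, so relative to either KIT was lower still. Oocyte markers in CC-IVM were at 0.055% to 0.223% of their OO level, against 0.184% to 1.19% in CC, and their part in this difference was not tested. KIT-a in CC-IVM was 4.76% to 9.23% of its OO level. IVM and slide cannot be told apart, since no slide held both groups.

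KITLG was measured in OO, TH, and GC but hardly in CC. Of the 16 values per group, 4 probes on 4 arrays, 16 were well above background in OO, 16 in TH, 14 in GC, 6 in CC-IVM, and 2 in CC. On KITLG-a, OO read -1.92, -1.82, -1.62, and -1.80, TH -4.03, -4.39, -4.06, and -3.38, GC -4.97, -4.36, -4.25, and -3.95, and CC -5.55, -6.97, -5.93, and -6.31, of which only the first CC array was well above background. The OO arrays stood apart, TH and GC overlapped, and CC lay below all of them. On KITLG-c, OO read -1.91, -1.64, -1.58, and -1.83, TH -4.67, -4.31, -3.81, and -4.55, GC -5.39, -4.62, -4.38, and -3.85, and CC -6.61, -6.98, -7.44, and -7.33, with no CC array and 3 of 4 GC arrays well above background. The pattern was that of KITLG-a. Means ± SD on KITLG-b were -0.89 ± 0.20 in OO, -3.60 ± 0.40 in TH, -3.71 ± 0.74 in GC, and -5.88 ± 0.67 in CC (n = 4), and on KITLG-d -1.78 ± 0.14, -4.26 ± 0.51, -4.61 ± 0.81, and -6.65 ± 1.01. CC lay below every TH, GC, and OO array on KITLG-a, KITLG-b, and KITLG-c, as on 2.11% of all probes, but not on KITLG-d.

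KITLG was higher in OO than in TH by 2.17 to 2.70 over the 4 probes (4.51- to 6.51-fold; adjusted p at most 0.000228) and than in GC by 2.59 to 2.83 (6.04- to 7.09-fold; adjusted p at most 6.85e-05). Since CC was above background on at most 1 array of 4, OO against CC is a bound. For this bound each CC array entered at its own reading or at the lowest signal that passed as above background on that array, whichever was higher. OO was then at least 11.9-fold higher on KITLG-a, at least 21.0-fold on KITLG-b, at least 12.7-fold on KITLG-c, and at least 12.4-fold on KITLG-d. The test was of the measured differences, 4.40 to 5.35 (adjusted p at most 1.9e-07), and not of the bounds. With normexp background correction and its added offset of 50, OO minus CC shrank to 1.62 to 2.39, OO minus GC to 1.01 to 1.53, and OO minus TH to 1.08 to 1.75, all still called. The granulosa and cumulus marker list in OO was at 0.564% to 0.793% of its CC level. Without OO replicate 2 the differences of OO from each somatic group were 2.18 to 5.32, all called. Within slides they were called as well, 2.34 to 2.72 for OO minus TH on slide 1 and 2.01 to 2.92 on slide 2.

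KITLG did not differ detectably between TH and GC. The difference TH minus GC was 0.42 (95% confidence interval -0.22 to 1.06), 0.12 (-0.68 to 0.91), 0.22 (-0.41 to 0.85), and 0.35 (-0.65 to 1.34) on KITLG-a to KITLG-d, with adjusted p from 0.372 to 0.851. Both exceeded CC on all 4 probes. TH was at least 2.65-, 3.22-, 2.10-, and 2.22-fold higher than CC on KITLG-a to KITLG-d. The measured differences, which were the ones tested, were 2.23 to 2.75 (adjusted p at most 0.000987), with 13.1% of all probes called higher. GC was at least 1.98-, 2.97-, 1.81-, and 1.74-fold higher than CC. The measured differences were 1.81 to 2.53 (adjusted p at most 0.0116), with 4.02% of all probes called higher. The median difference over all probes was 0.0045 for TH minus CC and 0.15 for GC minus CC. With normexp, TH minus CC was 0.42 to 0.64 and not called on KITLG-c and KITLG-d, and GC minus CC was 0.60 to 0.87 and called. Within slide 1, GC minus CC was 1.59 to 2.28 and no probe was called, and within slide 2 it was 1.81 to 3.27 and KITLG-a and KITLG-c were called. The order of KITLG was therefore OO, then TH and GC without a difference beyond their spread, then CC.

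**Figure D2:**
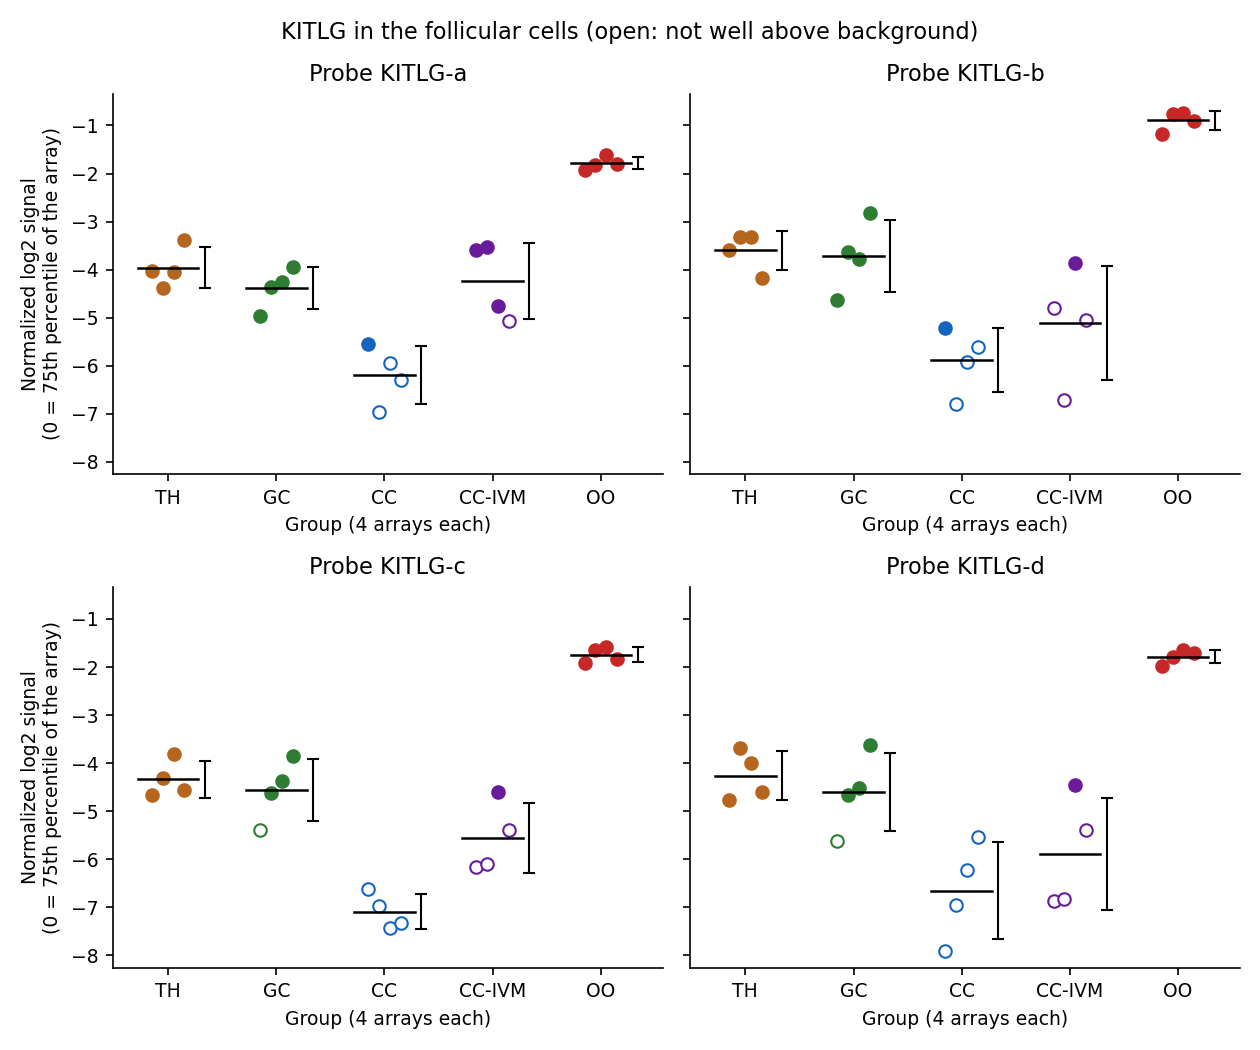
Normalized log2 signal of KITLG (y axis, 0 is the 75th percentile of the array) on each of 4 arrays of TH, GC, CC, CC-IVM, and OO (x axis), a panel for each of 4 overlapping probes. Filled points are well above background, open points are not, lines are group means, and bars are ± 1 SD. OO is highest on every probe, and in CC 2 of 16 points are filled.

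In cumulus cells after IVM the KITLG probes did not read alike. On KITLG-a the CC-IVM arrays read -3.59, -3.52, -4.75, and -5.08, and 3 of 4 were well above background. On KITLG-b they read -4.80, -6.72, -3.87, and -5.05, on KITLG-c -6.17, -6.09, -4.60, and -5.39, and on KITLG-d -6.88, -6.83, -4.46, and -5.39. On the last 3 probes only replicate 3 was well above background, and it was the highest array, while on KITLG-a replicates 1 and 2 were the highest. KITLG-a minus KITLG-d ranged from -0.28 to 3.30 within CC-IVM, from -0.76 to 2.35 within CC, from -0.70 to 1.23 within TH, from -0.32 to 0.65 within GC, and from -0.09 to 0.06 within OO, so the probes also spread apart in CC, where they were near background.

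CC-IVM minus CC was 1.95 ± 0.44 on KITLG-a (SE; adjusted p = 0.00983), at least 2.19-fold, and 1.53 ± 0.37 on KITLG-c (adjusted p = 0.0139), where no fold is given because both groups were near background. It was 0.78 (95% confidence interval -0.55 to 2.10; adjusted p = 0.301) on KITLG-b and 0.76 (-0.73 to 2.25; adjusted p = 0.365) on KITLG-d. Among all probes 30.6% were called higher in CC-IVM, and the median difference over all probes was 0.39. Genes above background on no array of either group also read higher in CC-IVM. Examples are MS4A2 (1.02, adjusted p = 0.00928) and PTPRC (0.70, adjusted p = 0.0241), with CYP17A1 (0.37) and FLT3 (0.59) not called. The lowest signal that passed as above background was -5.12 to -4.58 in CC-IVM and -5.72 to -5.26 in CC. Its part in the KITLG differences was not tested. On the median over the 4 probes the difference was 0.86 ± 0.39 (adjusted p = 0.0944). KITLG-c was no longer called after quantile normalization (1.21, adjusted p = 0.11), where 12.9% of all probes were called higher and 14.9% lower. KITLG-b and KITLG-d were called with normexp (0.77 and 0.68), where 63.7% of all probes were called higher and the median over all probes was 0.58. Both were also called in the deposited log2 table (0.49 and 0.47), where 38.4% of all probes were called higher and that median was 0.25. KITLG-b was also called without CC-IVM replicate 2 (1.31, adjusted p = 0.046). Slide and IVM cannot be told apart here either.

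**Figure D3:**
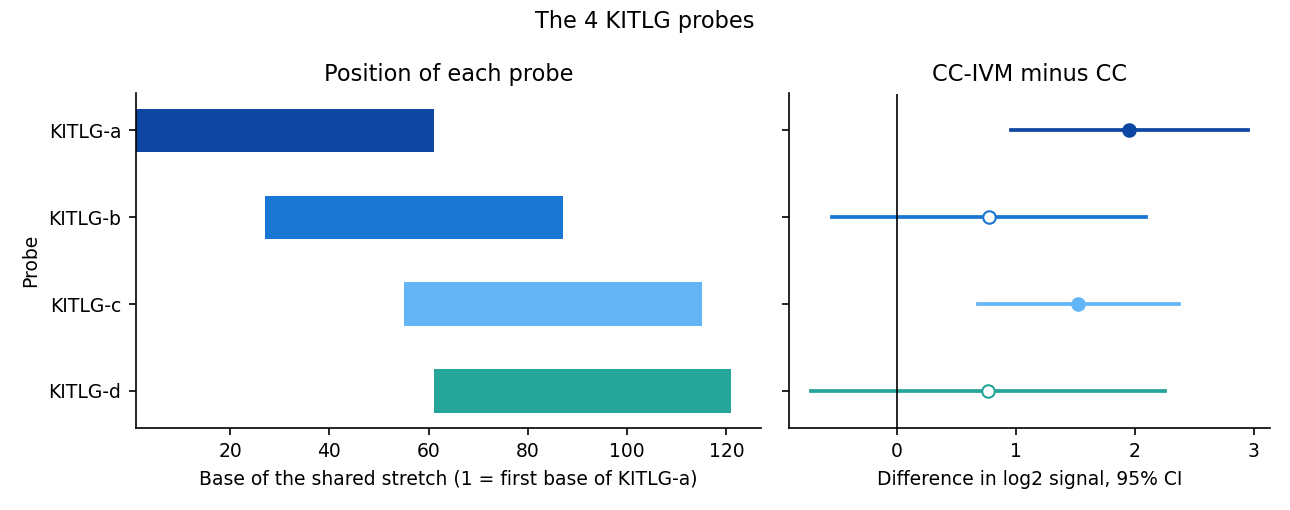
Left, the bases covered by each of the 4 KITLG probes (x axis, base 1 is the first base of KITLG-a). Right, the difference CC-IVM minus CC in log2 signal with its 95% confidence interval, filled where the adjusted p is under 0.05. KITLG-a and KITLG-d share 0 bases and gave 1.95 and 0.76, and KITLG-c and KITLG-d share 54 bases and gave 1.53 and 0.76.

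**Figure D4:**
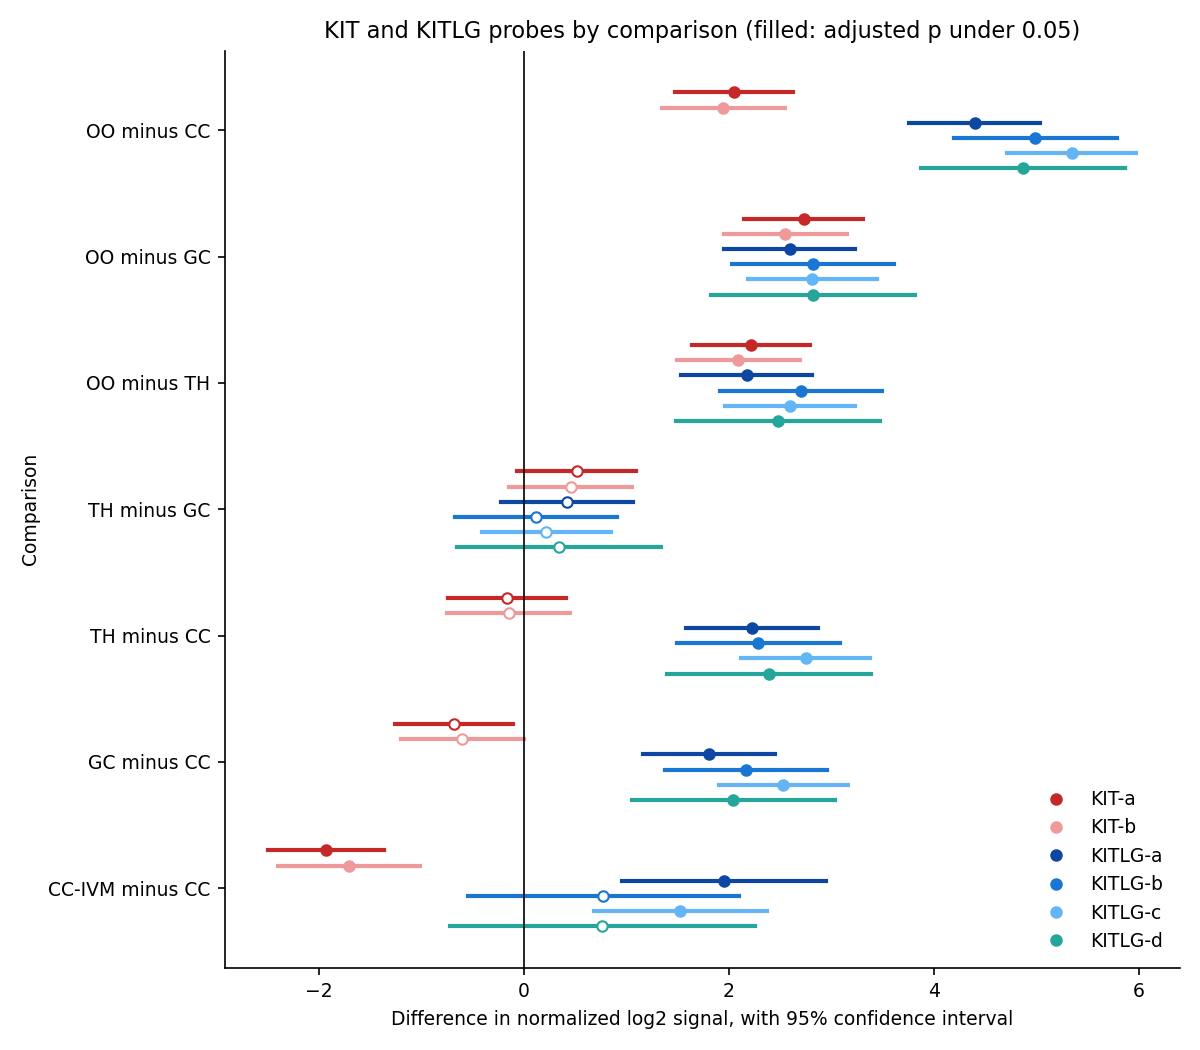
Differences in normalized log2 signal with 95% confidence intervals (x axis) for the 2 KIT and 4 KITLG probes in 7 comparisons (y axis), filled where the adjusted p is under 0.05. OO is higher than each somatic group on all 6 probes, KIT is lower and KITLG-a and KITLG-c are higher in CC-IVM than in CC. Where CC was near background the plotted difference is the measured one, not the bound given in the text.

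The genes of KIT signaling were read from a list of 62 genes by role, of which 61 are on the array (GAB2 is not), each as the median over its probes. In OO against CC, 30 of 61 (49.2%) were higher and 11 (18.0%) lower, against 31.8% and 32% of all genes. Their median difference was 0.25, and that of all genes -0.40. With normexp 21 were higher and 25 lower, where 22.6% of all probes were called higher and 64.6% lower. The list is counted by gene, and these shares by single probe. In the PI3K to FOXO3 branch 9 of 16 were higher and 2 lower, in the RAS to ERK branch 6 of 11 and 1, among adaptors and proximal kinases 6 of 13 and 2, among JAK and STAT 2 of 5 and 2, and among inhibitors 7 of 12 and 3. MITF, a melanocyte and mast cell transcription factor downstream of KIT, was not called, and of 3 shedding proteases 1 was lower.

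SH2B3, an adaptor that dampens KIT signaling, was at least 206-fold higher in OO than in CC, where it was well above background on 1 of 4 arrays. The measured means were 2.29 against -6.18, and the adjusted p of 2.12e-13 is of that difference. STAT3, a transcription factor that KIT can activate, was 34.3-fold higher, and LYN, a SRC family kinase that binds KIT, was 24.7-fold higher. PIK3CD, a catalytic subunit of PI3 kinase, was at least 9.78-fold higher. TEC, a kinase activated downstream of KIT, was 27.2-fold lower in OO (-3.63 against 1.14). The kinase MAPK3, also called ERK1, was 2.64-fold lower, AKT2 at least 2.1-fold lower, and the inhibitory adaptor DOK2 at least 1.74-fold lower. FOXO3, the target at the end of the PI3 kinase branch, named here after its values were seen, was -1.98 ± 0.25 in OO and -4.51 ± 0.36 in CC (SD, n = 4; difference 2.53 ± 0.31, SE).

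In GC against TH, 11 of 61 genes (18.0%) were higher in GC and 13 (21.3%) lower, against 14.5% and 11.8% of all genes. Of the PI3K to FOXO3 branch 6 of 16 were higher in GC and 1 lower, while of the inhibitors 1 of 12 was higher and 5 lower. TEC was 8.92-fold higher in GC, the transcription factor FOXO1 5.93-fold, and PIK3R1, a regulatory subunit of PI3 kinase, 3.1-fold, with CBLB, a ubiquitin ligase that ends receptor signals, at least 1.15-fold higher. GRB10, an adaptor that restrains receptor tyrosine kinases, was at least 11.4-fold lower in GC than in TH, SH2B3 at least 4.72-fold, LYN 7.51-fold, and SPRED1, an inhibitor of RAS signaling, 4.1-fold lower. LYN and SH2B3 are also used by leukocytes, whose 5 markers were all above background in TH with a summed level of 3.57 to 5.75, against 0.24 to 1.39 in GC. In OO the sum was 12.1 to 14.8 and in CC 0.19 to 0.71, and the list holds CSF1R, which was high in OO. The part of those cells in the differences was not tested.

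In CC-IVM against CC, 19 of 61 genes (31.1%) were higher, close to the 30.3% of all genes, and 12 (19.7%) lower, against 15.5% of all genes. With normexp 41 were higher, where 63.7% of all probes were called higher, a share by single probe and not by gene. In the PI3K to FOXO3 branch 2 of 16 were higher and 7 lower, with a median difference of -0.65 against 0.37 for all genes, and in the RAS to ERK branch 4 of 11 were higher and 0 lower. GAB1, a docking protein that brings PI3 kinase to receptors, was 10.5-fold lower after IVM, TSC2, a brake on MTOR, 2.77-fold, PIK3R2, another regulatory subunit of PI3 kinase, 2.6-fold, and FOXO3 at least 1.18-fold lower. MMP9, a protease that can release KITLG from the membrane, was 29.6-fold higher (2.74 ± 1.18 against -2.15 ± 0.30, SD, n = 4). MAP2K1, the kinase above ERK, was 3.69-fold higher, SH2B3 at least 9.84-fold, and GRB10 at least 1.94-fold. Of the leukocyte markers CD68 and CD14 were also higher after IVM, by 2.15 and 2.33 (adjusted p of 0.00188 and 0.043), CSF1R, CD3E, and PTPRC were above background on 3, 1, and 0 of 4 CC-IVM arrays, and the summed level was 0.83 to 2.11 in CC-IVM. The part of leukocytes in the differences of MMP9 and SH2B3 was not tested. The oocyte and CC-IVM comparisons share the CC arrays.

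**Figure D5:**
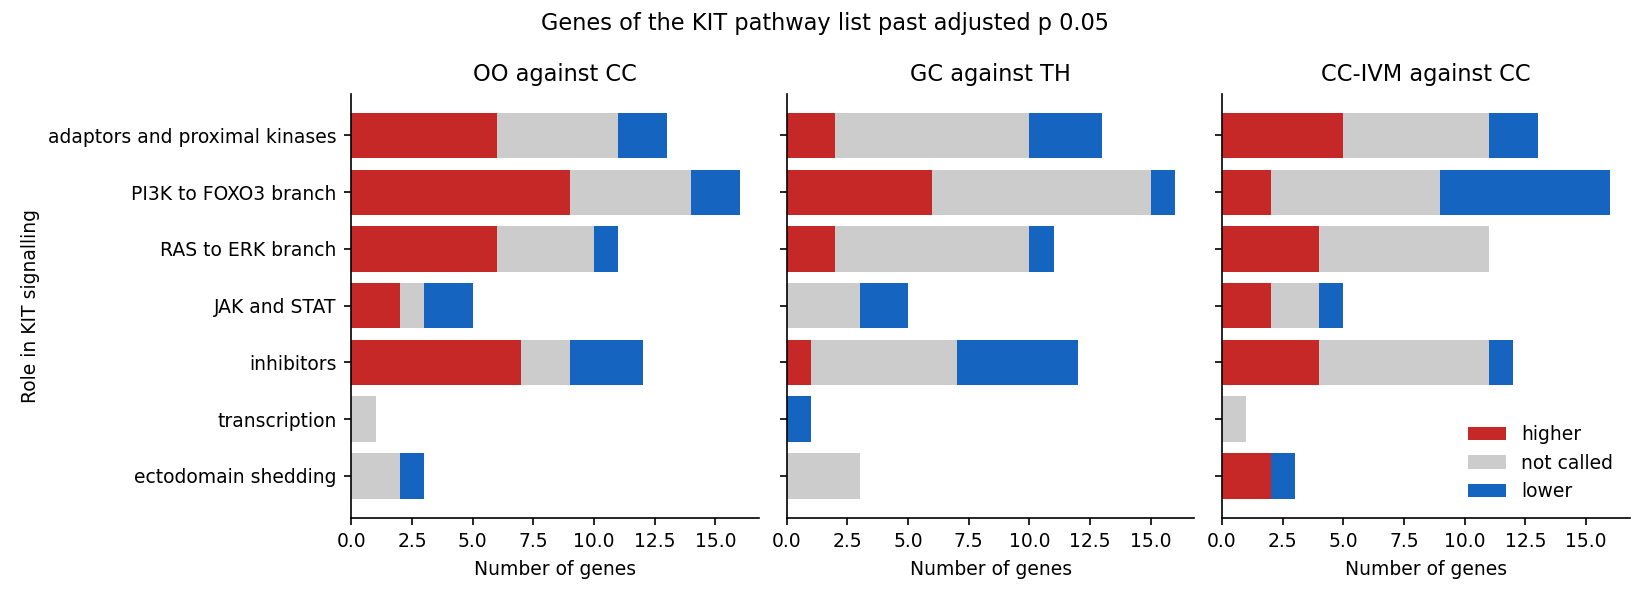
Number of genes of the KIT pathway list (x axis) in each role (y axis) that were higher (red), lower (blue), or not called (gray) at an adjusted p under 0.05, in OO against CC, GC against TH, and CC-IVM against CC. In the PI3K to FOXO3 branch 9 of 16 genes are higher in OO and 7 of 16 are lower in CC-IVM.

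Among the other receptors of the KIT class, CSF1R, the receptor of macrophage colony-stimulating factor, was also highest in OO, with a mean of 3.70 ± 0.14 (SD, n = 4), followed by TH with 1.60 ± 0.36, GC with -2.03 ± 1.02, CC-IVM with -2.91 ± 1.27, and CC with -3.25 ± 1.10. PDGFRA and PDGFRB, receptors of platelet-derived growth factors, were highest in TH (1.22 ± 0.13 and -2.61 ± 0.24), and PDGFRA was above background on no OO array. FLT3 was above background on at most 2 arrays of any group. Of the ligands, PDGFA was -1.07 ± 0.21 in OO and -4.90 to -4.16 in the other groups. PDGFB (-4.41 ± 1.26), PDGFD (-4.15 ± 0.32), and FLT3LG (-1.97 ± 0.81) had their highest means in TH, PDGFC in CC (-3.40 ± 0.39), and CSF1 in CC-IVM (-4.92 ± 0.30). IL34, the other ligand of CSF1R, was measured on 3 of 4 arrays in TH and in OO (-5.54 ± 0.86 and -6.10 ± 0.76).

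The genes whose values were most like those of KIT-a over the 20 arrays, among 15159 measured genes, were CCDC132 (Pearson r = 0.970), FAM228B (0.969), MGC152321 (0.968), BBS2 (0.968), and ABCB10 (0.963). All had their highest mean in OO and their lowest in CC-IVM, as KIT-a did. For KITLG-c they were PALM (0.945), APBB1IP (0.938), REXO2 (0.935), TMTC2 (0.932), and ARHGAP29 (0.929), all highest in OO and lowest in CC. These correlations describe 20 arrays that fall into 5 groups and were scaled array by array.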

How the data were processed

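Per the labels, RNA was extracted with Trizol, and the authors scanned a custom bovine Agilent array of 60-base probes. Intensity was deposited per spot as the output of Agilent Feature Extraction 10.7.3.1 (submitters' processing notes), with a processed signal after background subtraction and other marks of 0 or 1 for background, saturation, and outliers. A second set of deposited log2 values holds, within 5e-09, log2 of the median signal minus the array median, without background subtraction. Here log2 of processed signal minus the 75th percentile of each array was used, with control spots and outlier-marked spots left out. Members were tested per probe over 61325 probes and pathway genes as medians of probes over 22550 genes or transcripts, with limma 3.58.1 (lmFit, eBayes; R 4.3.3, data.table, version 1.17.8) and Benjamini-Hochberg adjustment, called at an adjusted p of 0.05. TH, GC, CC, and OO (16 arrays) shared a fit, and CC-IVM and CC (8 arrays) another. A group above background on fewer than 3 of 4 arrays got a bound, while the tests used the measured differences. A gene counted as above background on an array where any of its probes was, although its level is the median over its probes. Of the 9779 probes without a gene name, 734 were named by accession from RefSeq. Further steps ran in Python 3.11.15 (pandas 2.3.3, numpy 2.4.6, matplotlib 3.10.9).

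Named pathway genes were the 4 largest called differences in each direction whose groups did not overlap and whose brighter group was above background on at least 3 arrays. Similar genes were the 5 with the highest Pearson r. The members and lists were chosen with earlier results of these data known. No 2 arrays were identical (highest r within a group 0.989). Deviations from the group means of TH and GC arrays with the same number correlated between 0.13 and 0.35, over 0.1 in all 4 pairs. Between other groups 9 of 36 such correlations were over 0.1, and no pairing was taken. For TH and GC a pairing by these numbers was read from the data and is not given by the labels. It was used in alternative fits only. The TH minus GC values in the results are from the fit on the group alone, without the pairing. The fits were tested on simulated data. The number of arrays limits the precision.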

Additional observations from a re-analysis of the deposited data

Results flagged for a closer look

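Of 30 groups of 4 arrays for the 6 KIT and KITLG probes, in none did 1 array stand apart from the other 3 beyond Dixon's 95% critical value. Among 200 such groups for the named pathway genes, the related receptors and ligands, and the similar genes, 7 did, and chance gives about 1 in 20. Genes named only as markers, and MITF, were not checked. The arrays that stood apart were CBLB in GC replicate 2 (-4.43, the next -5.28), CSF1R in OO replicate 1 (3.49, the next 3.74), PDGFB in OO replicate 2 (-6.19, the next -7.91), PDGFD in CC replicate 1 (-7.85, the next -7.42), PIK3R2 in CC-IVM replicate 3 (1.68, the next 1.22) and in OO replicate 1 (1.46, the next 1.96), and STAT3 in CC-IVM replicate 1 (-0.30, the next -0.92).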

How the results depend on the processing

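All differences of OO from TH, GC, CC, and their mean were called in the same direction under every alternative run, for both KIT and all KITLG probes, as were the F-tests and the KIT difference between CC-IVM and CC (-1.48 to -1.96 on KIT-b, -1.40 to -2.08 on KIT-a). With normexp, which here also adds an offset of 50 to each signal, OO minus CC on KITLG-d was 1.62 in place of 4.87, and the 2 steps were not separated. With normexp, TH minus CC was no longer called on KITLG-d (0.42) and KITLG-c (0.45), and CC-IVM minus CC was called on KITLG-d (0.68) and KITLG-b (0.77). TH minus GC turned to -0.05, -0.19, -0.22, and -0.23 on KITLG-a, KITLG-d, KITLG-c, and KITLG-b with normexp, all uncalled. Of the pathway list 21 genes were then higher and 25 lower in OO than in CC, where 22.6% of all probes were called higher and 64.6% lower. In CC-IVM against CC 41 were higher, where 63.7% of all probes were called higher. For both comparisons the list is counted by gene, and the shares by single probe. With the deposited log2 table, TH minus GC was -0.03 on KITLG-c and -0.04 on KITLG-b. There GC minus CC was not called on KITLG-d (0.57) but called on KIT-b (-0.82) and KIT-a (-0.75). CC-IVM minus CC was called there on KITLG-d (0.47) and KITLG-b (0.49), where 38.4% of all probes were called higher. KITLG-c in CC-IVM minus CC was lost with quantile normalization (1.21), and KITLG-a and KITLG-c with the median over probes (0.86). TH minus CC for KIT, never called, was 0.06 and 0.05 (KIT-b, KIT-a) with the percentile over probes above background, 0.13 and 0.09 with array weights, and 0.08 on KIT-a within slide 1. Within slide 1, TH minus CC on KITLG-a (2.05) and GC minus CC on KITLG-a (1.59), KITLG-d (2.28), KITLG-c (1.79), and KITLG-b (1.87) were not called. Within slide 2, TH minus CC on KITLG-d (1.59) and GC minus CC on KITLG-d (1.81) and KITLG-b (2.47) were not called, with 2 arrays a group, and TH minus GC was -0.22, -0.07, -0.01, and -0.45 on KITLG-d, KITLG-c, KIT-b, and KITLG-b. Pathway genes lower in GC than in TH numbered 8 with the array median, and those lower in OO than in CC 18 with the brightest probe and 18 with array weights. With 1 array left out, TH minus GC ranged from -0.06 to 0.46 on KITLG-c, from -0.19 to 0.41 on KITLG-b, and from 0.25 to 0.76 on KIT-a, TH minus CC from -0.41 to 0.08 on KIT-b and from -0.43 to 0.08 on KIT-a, and CC-IVM minus CC from 0.36 to 1.31 on KITLG-b. With the replicate number as a block no call on a member changed (KIT-a, CC-IVM minus CC, -1.93, adjusted p = 0.0061). With the block on TH and GC arrays alone, an alternative chosen after seeing the data, no TH minus GC call changed (KIT-a 0.52, adjusted p = 0.21), and 10 pathway genes were higher and 13 lower in GC. Slide as a random block could not move the estimates of CC-IVM minus CC, since no slide held both. It changed their precision, with a consensus correlation within slides of -0.252. The adjusted p went from 0.00983 to 0.00043 on KITLG-a and from 0.000612 to 2e-05 on KIT-a, and no call on a member changed. Because slide and IVM cannot be told apart, this fit could not adjust the difference for slide, and nothing is read from the smaller adjusted p. Of the all-probe calls in CC-IVM against CC, 67.1% were higher with the 75th percentile and 46.5% after quantile normalization. In OO against CC that share was 48.9%, 25.9% with normexp and 36.3% with the deposited log2 values. The median over all probes moved from -0.47 to 0.0039 (quantile) or -1.22 (normexp) for OO minus CC and from 0.39 to 0.014 or 0.58 for CC-IVM minus CC. The causes of these changes were not tested.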
